A study of Rattus norvegicus with 11 samples.

Results

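Cholesterol synthesis was followed through 7 genes, Hmgcs1, Idi1, Sqle, Lss, Cyp51, Dhcr7 and Insig1, in the striatum of rats at day 3 after intracerebral hemorrhage (ICH). The genes were taken by symbol from the 30560 genes of the deposited table. All 7 were found, and all 7 were among the 15742 genes that passed the filter on low counts. RNA was sequenced from 11 adult male Sprague-Dawley rats in 4 groups, with 1 library per rat. The IC group, the model of common hemorrhage, held 3 rats given 0.2 U of collagenase VII-S in 1.0 μL into the striatum. The IS group, the model of severe hemorrhage, held 3 rats given 0.6 U in 3.0 μL. The IS-HA group held 3 rats with the IS dose whose hematoma was aspirated at 6 h, when 150 μL or about 75% of it was withdrawn through a catheter. The Normal group held 2 normal control rats, and no injection or sham surgery of them is described. The needle, the collagenase and the bleeding therefore cannot be told apart in any comparison with Normal. IS differed from IC in both the dose and the injected volume, and IS-HA rats also had a further anesthesia and a catheter passed through the striatum. All comparisons with Normal share the same 2 Normal rats.

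Cells build cholesterol from acetyl-CoA through HMG-CoA, mevalonate, isoprenoids, squalene and lanosterol. When sterols in the endoplasmic reticulum are low, the protein SCAP carries SREBP transcription factors to the Golgi, where they are cut and released to switch on genes of this pathway, whereas INSIG proteins hold SCAP back when sterols are high. The brain makes nearly all of its own cholesterol because lipoproteins of the blood do not cross the blood-brain barrier, and oligodendrocytes, which build myelin, and astrocytes are known for high synthesis.

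The counts assigned to genes summed to between 6701301 (IS-HA replicate 2) and 18817645 (IC replicate 3) per rat, so that 3 counts stood at 0.448 CPM in the smallest library and 0.159 CPM in the largest. The 7 genes had between 84 and 6637 counts in each rat, well above that floor. Such floors cover counting error only. IS-HA replicate 2, the smallest library, was below the other 2 rats of its group in all 7 genes in TPM. In normalized CPM IC replicate 3, the largest library, was the highest of its group in all 7 genes. IS replicate 4, the smallest IS library (7448205 counts), was the lowest IS rat in 5 of the 7. IS replicate 3, the largest IS library (10958581 counts), was the highest IS rat in 1. The Normal libraries held 17379496 and 18486883 counts, and the part of depth in the comparisons with Normal was not tested. The tissue label was checked against markers of striatal neurons. In the Normal rats Ppp1r1b stood at 2195 ± 131 TPM and Drd1 at 244 ± 31.1 TPM (SD, n = 2).

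The 7 genes span the pathway from HMG-CoA to cholesterol and include 1 of its regulators. Hmgcs1 makes HMG-CoA, and Idi1 interconverts the isoprenoid building blocks. Sqle oxidizes squalene and Lss closes it into lanosterol, from which Cyp51 removes a methyl group. Dhcr7 makes cholesterol from 7-dehydrocholesterol, and Insig1 is the sterol-dependent brake on SCAP. Hmgcs1 and Insig1 were the members lower than Normal in all 3 injured groups, and the 250 bases upstream of their starts are therefore shown, from RefSeq on build GRCr8, in the direction of transcription. The deposited counts were made on another build, mRatBN7.2. Capitals mark ATTGG, which is CCAAT, the letters bound by NF-Y, read on the opposite strand. The Hmgcs1 window is chr2:53382054-53382303 on the plus strand and the Insig1 window is chr4:8057770-8058019 on the minus strand.
Hmgcs1: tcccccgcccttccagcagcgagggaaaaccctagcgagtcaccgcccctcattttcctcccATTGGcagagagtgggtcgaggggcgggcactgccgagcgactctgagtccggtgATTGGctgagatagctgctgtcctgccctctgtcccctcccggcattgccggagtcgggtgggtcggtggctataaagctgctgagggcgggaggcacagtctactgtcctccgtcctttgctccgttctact
Insig1: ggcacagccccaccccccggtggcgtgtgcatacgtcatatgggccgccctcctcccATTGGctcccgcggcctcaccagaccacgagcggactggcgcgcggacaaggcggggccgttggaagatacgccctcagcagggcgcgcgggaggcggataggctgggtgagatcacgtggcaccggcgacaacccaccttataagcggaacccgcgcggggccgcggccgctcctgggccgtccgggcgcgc

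RefSeq promoter windows, each 250 bases before to 50 bases after the start, were matched by symbol for 6 of the 7 genes, all but Sqle. CCAAT, searched on both strands, was in 4 of these 6 windows and in 11 of the 12 windows matched for other enzymes of the pathway, against 37.5% of 33469 windows in all. Hmgcs1 held it at 129 to 133 and at 184 to 188 bases before the start, Insig1 at 189 to 193, Lss at 78 to 82, and Idi1 at 31 to 35 and at 62 to 66. In each case it lay on the opposite strand. The Cyp51 and Dhcr7 windows held none. The letters TCACNCCAC, a form of the sterol regulatory element bound by SREBP, were in 0 of the 6 windows, 0 of the 12 and 1.12% of all windows. A match of letters is a description of the window and not a measured binding site.

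In TPM, which is per length and so allows genes to be compared, Hmgcs1 was the highest of the 7 in Normal striatum at 209 ± 44.7 TPM (SD, n = 2). Cyp51 followed at 122 ± 11.5 TPM, Insig1 at 70.1 ± 14.7 TPM and Sqle at 51.0 ± 14.1 TPM. Idi1 stood at 25.2 ± 3.59 TPM, Dhcr7 at 24.9 ± 3.62 TPM and Lss at 16.3 ± 3.19 TPM. The ranges of neighbours in this order overlapped for Insig1 and Sqle and for Idi1 and Dhcr7. In IS the order at the top was turned, with Cyp51 at 81.5 ± 17.5 TPM and Hmgcs1 at 61.0 ± 21.5 TPM (SD, n = 3), although the ranges of these 2 genes overlapped in all 3 injured groups.

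**Figure D1:**
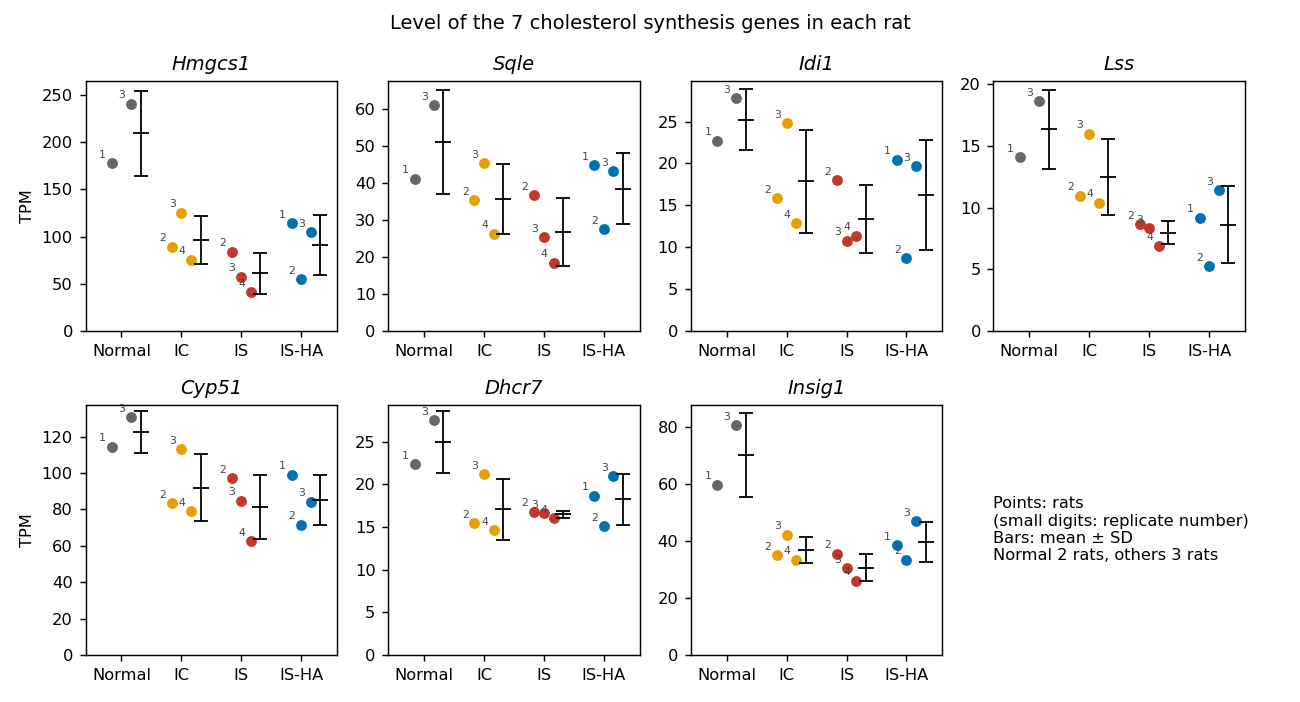
Level in TPM of each of the 7 genes (one panel each, axis from 0) in every rat of Normal, IC, IS and IS-HA; points are rats with their replicate number, and bars give the mean ± SD (n = 2 for Normal, n = 3 for the others). In every panel the Normal mean is the highest, and for Hmgcs1 the 9 injured rats lie between 41.4 and 125 TPM, below the Normal rats at 177 and 240.5 TPM.

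Hmgcs1 had the largest change of the 7 in every comparison with Normal. Its level was 177 and 240.5 TPM in Normal replicates 1 and 3. It was 89.5, 125 and 75.7 TPM in IC replicates 2, 3 and 4, and 84.0, 57.7 and 41.4 TPM in IS replicates 2, 3 and 4. It was 114, 55.2 and 104 TPM in IS-HA replicates 1, 2 and 3. The injured groups averaged 46.3% (IC), 29.2% (IS) and 43.7% (IS-HA) of the Normal mean, and no injured rat reached the lower Normal rat. Hmgcs1 was lower in all 3, with a log2 fold change of -1.17 in IC (standard error 0.275, adjusted p = 0.015), -1.77 in IS (0.277, adjusted p = 0.00066) and -1.24 in IS-HA (0.275, adjusted p = 0.00767). These and all later adjusted p are from edgeR's quasi-likelihood F test, corrected by Benjamini-Hochberg over all genes tested.

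Insig1, the brake on SREBP release and itself a well-known SREBP target, had the smallest adjusted p of the 7 in each of these comparisons. Its level was 59.7 and 80.5 TPM in the Normal rats, 35.04, 42.2 and 33.5 TPM in IC, 35.5, 30.5 and 26.0 TPM in IS, and 38.5, 33.4 and 47.0 TPM in IS-HA, in order of replicate number. All 9 injured rats lay below both Normal rats. Its log2 fold change was -0.98 in IC (standard error 0.165, adjusted p = 0.00242), -1.18 in IS (0.165, adjusted p = 0.000371) and -0.84 in IS-HA (0.165, adjusted p = 0.0042).

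Lss, which closes the sterol rings, was lower than Normal in IS and IS-HA. It stood at 14.1 and 18.6 TPM in Normal, at 10.96, 15.96 and 10.4 TPM in IC, at 8.63, 8.32 and 6.91 TPM in IS, and at 9.19, 5.23 and 11.4 TPM in IS-HA. IC replicate 3 lay between the Normal rats, and every IS and IS-HA rat lay below them. Its log2 fold change was -1.02 in IS (standard error 0.234, adjusted p = 0.00515) and -0.96 in IS-HA (0.234, adjusted p = 0.0115). In IC it was -0.45 (0.234, adjusted p = 0.196).

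Sqle, the enzyme before Lss and a rate-limiting step of the sterol branch, was lower than Normal by the test in IS, and did not pass it in IC or IS-HA. It stood at 41.0 and 60.9 TPM in Normal, at 35.2, 45.3 and 26.3 TPM in IC, at 36.6, 25.3 and 18.5 TPM in IS, and at 44.8, 27.4 and 43.1 TPM in IS-HA. IC replicate 3 and IS-HA replicates 1 and 3 lay between the Normal rats in TPM. Its log2 fold change was -0.92 in IS (standard error 0.253, adjusted p = 0.0126), -0.57 in IC (adjusted p = 0.135) and -0.43 in IS-HA (adjusted p = 0.204).

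Idi1, which feeds the isoprenoid chain, also passed the test in IS and not in IC or IS-HA. It stood at 22.7 and 27.8 TPM in Normal, at 15.9, 24.8 and 12.9 TPM in IC, at 17.99, 10.8 and 11.4 TPM in IS, and at 20.4, 8.71 and 19.7 TPM in IS-HA. IC replicate 3 lay between the Normal rats, and IS-HA replicate 2 was the lowest of all 11. Its log2 fold change was -0.91 in IS (standard error 0.306, adjusted p = 0.0302), -0.56 in IC (adjusted p = 0.212) and -0.68 in IS-HA (adjusted p = 0.109).

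Cyp51 and Dhcr7, which act after lanosterol, had the smallest log2 fold changes of the 7 in IS. Cyp51 stood at 114 and 131 TPM in Normal, at 83.5, 113 and 79.0 TPM in IC, at 97.2, 84.7 and 62.6 TPM in IS, and at 99.0, 71.5 and 84.3 TPM in IS-HA. Dhcr7 stood at 22.4 and 27.5 TPM in Normal, at 15.4, 21.2 and 14.6 TPM in IC, at 16.8, 16.6 and 16 TPM in IS, and at 18.7, 15.1 and 20.9 TPM in IS-HA. For both genes every injured rat lay below both Normal rats, and the 3 IS rats were close together for Dhcr7 (16.4 ± 0.402 TPM). Cyp51 was lower in IS (log2 fold change -0.58, standard error 0.183, adjusted p = 0.023) and in IS-HA (-0.55, 0.184, adjusted p = 0.0435), with -0.47 in IC (adjusted p = 0.0956). Dhcr7 was lower in IC (-0.60, 0.18, adjusted p = 0.0412) and in IS (-0.58, 0.181, adjusted p = 0.0218), with -0.47 in IS-HA (adjusted p = 0.0684).

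Counted together, 3 of the 7 genes were lower in IC than in Normal (Hmgcs1, Dhcr7 and Insig1), where 4.64% of all genes tested were lower. All 7 were lower in IS, where 24.2% of genes were lower, and 4 were lower in IS-HA (Hmgcs1, Lss, Cyp51 and Insig1), where 12.1% were lower. None of the 7 was higher in an injured group, where 13.0% (IC), 24.8% (IS) and 19.5% (IS-HA) of genes were. The median log2 fold change of the 7 was -0.57 in IC, -0.92 in IS and -0.68 in IS-HA, beside 0.00, 0.02 and 0.06 over all genes tested. With the study's further cutoff of an absolute log2 fold change of at least 1, the counts were 1 in IC (2.66% of all genes), 3 in IS (17.0%) and 1 in IS-HA (7.71%). In normalized CPM all 9 injured rats lay below both Normal rats for 7 of the 7 genes, which held for 23.8% of all genes. In TPM it held for 4 of the 7, and the share of all genes in TPM was not counted. Among calls against Normal, lower genes made up 26.4% in IC, 49.3% in IS and 38.2% in IS-HA, and with library size alone as the scaling these were 10.1%, 38.3% and 22.4%. That scaling moved the median of all genes to 0.14, 0.15 and 0.18, and all 7 genes stayed below 0 in the 3 comparisons under each scaling.

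These counts rested on the 2 Normal rats. Leaving out either leaves 1 control, and the share of all genes called in such fits was not counted. Whether a loss of calls is particular to the 7 genes was therefore not tested. Without Normal replicate 3, the rat with the higher level of all 7 genes, 0 genes were called in IC, 2 in IS and 0 in IS-HA. Without Normal replicate 1, 4 were called in IS, and without IC replicate 4, 1 was called in IC. Hmgcs1 and Insig1 were called in IS in all 20 alternatives tried, and in IS-HA each in 19 of 20, whereas Dhcr7 was called in IC in 7 and Cyp51 in IS-HA in 6. The direction of all 7 genes against Normal was the same in every alternative.

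**Figure D2:**
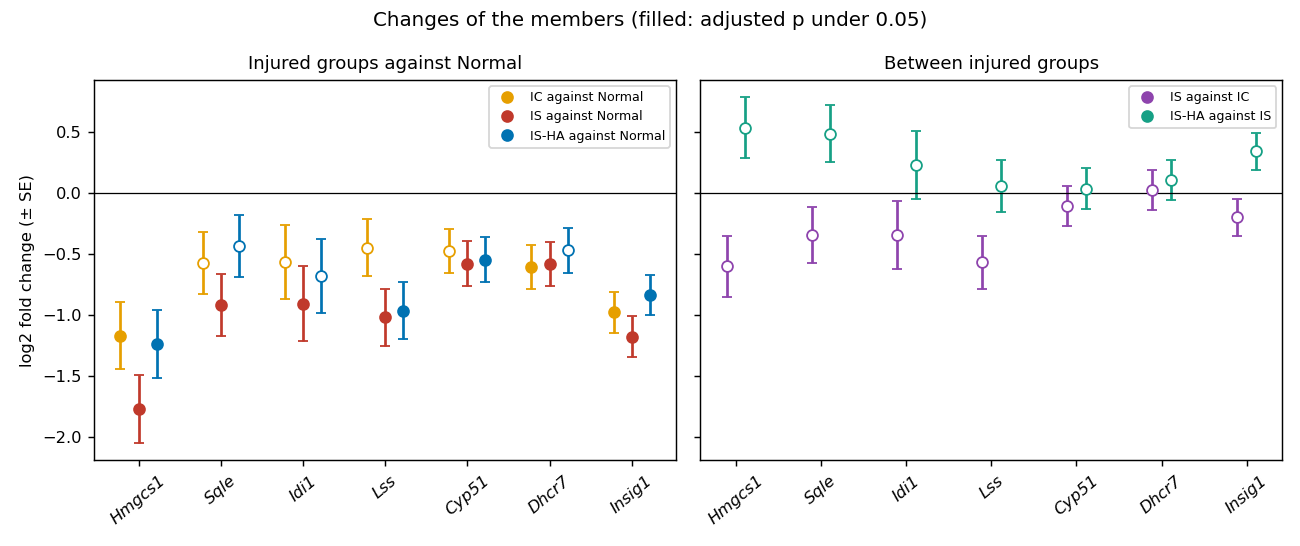
Log2 fold change of each of the 7 genes with its standard error, by comparison, from edgeR's quasi-likelihood fit; filled points have an adjusted p under 0.05. Against Normal all points lie below 0, and in the comparisons between injured groups no point is filled.

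Severity was addressed by IS against IC. edgeR's test called 0 of the 7 genes, and 0 of all genes in either direction (0.0%). DESeq2 also called 0 of the 7, and its share over all genes was not counted. At an unadjusted p under 0.05, 2 of the 7 were lower in IS, against 11.7% of all genes. These were Hmgcs1 (log2 fold change -0.60, standard error 0.251, adjusted p = 0.204) and Lss (-0.57, 0.214, adjusted p = 0.18). In normalized CPM the IS rats stood at 132.7, 98.3 and 75.0 for Hmgcs1 and the IC rats at 140.1, 191.3 and 133.1. For Lss the IS rats stood at 21.6, 22.5 and 19.8 and the IC rats at 27.2, 38.6 and 29.0. Each IS rat lay below each IC rat for these 2 genes, which held for 18.7% of all genes. The log2 fold changes of the others were -0.34 for Sqle, -0.34 for Idi1, -0.20 for Insig1, -0.11 for Cyp51 and 0.03 for Dhcr7, with adjusted p between 0.375 and 0.933. The median was -0.34 beside 0.00 over all genes. Without IS-HA replicate 2, which enters the fit through the shared estimate of spread, Lss passed (-0.57, adjusted p = 0.0484). The share of all genes that passed without this rat was not counted.

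Aspiration was addressed by IS-HA against IS. edgeR's test called 0 of the 7 genes, and 0.00635% of all genes were called higher. DESeq2 called 0 of the 7, and its share over all genes was not counted. All 7 log2 fold changes were above 0 with the 3 scalings tried, with a median of 0.23 beside 0.05 over all genes. The share of all genes above 0 was not counted. The 7 values were 0.53 for Hmgcs1 (standard error 0.251, adjusted p = 0.563), 0.49 for Sqle (0.232, adjusted p = 0.563), 0.34 for Insig1 (0.151, adjusted p = 0.557), 0.23 for Idi1, 0.11 for Dhcr7, 0.06 for Lss and 0.03 for Cyp51. With the replicate number as a block, Idi1 (-0.02), Lss (-0.04) and Cyp51 (-0.07) lay below 0. Lss and Cyp51 also turned below 0 in some fits without 1 rat. At an unadjusted p under 0.05 only Insig1 was higher, against 5.58% of all genes. Its normalized CPM was 42.9, 47.97 and 51.9 in IS-HA and 40.7, 37.7 and 34.1 in IS, so the groups did not overlap, which held for 4.96% of all genes. In TPM they overlapped, since IS-HA replicate 2 (33.4) lay below IS replicate 2 (35.5). IS-HA replicate 2 was the lowest rat of its group for 4 of the 7 genes in normalized CPM. Without it Hmgcs1 stood at 0.71 (adjusted p = 0.0882) and Sqle at 0.58 (adjusted p = 0.14). IS-HA against IC also gave 0 of 7 with both tools, beside 0.0% of all genes in either direction with edgeR. The share with DESeq2 was not counted. In edgeR's test 1 gene was lower at an unadjusted p under 0.05 (Lss, -0.51, adjusted p = 0.841), where 2.38% of all genes were lower.

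The other 16 enzymes of the pathway were read the same way, on a list chosen with earlier results of these data known. In IC 6 were lower, 1 was higher and 9 were not called. In IS these were 7, 1 and 8, and in IS-HA 6, 2 and 8. Over all genes tested 4.64%, 24.2% and 12.1% were lower in these groups, and 13.0%, 24.8% and 19.5% were higher. Lower in all 3 groups were Fdft1, which makes squalene (log2 fold change -0.96 in IC, -1.21 in IS and -0.81 in IS-HA), and, among enzymes that act after lanosterol, Msmo1 (-0.84, -0.95 and -0.87), Hsd17b7 (-1.45, -2.34 and -1.82) and Sc5d (-1.01, -1.52 and -1.06). Without Normal replicate 3, Hsd17b7 stood at -0.85 in IC (adjusted p = 0.373). Fdps, which makes farnesyl diphosphate, was lower in IS (-0.65) and did not pass the test in IC or IS-HA. The list's medians were -0.41, -0.61 and -0.35, nearer to 0 than those of the 7 genes in each comparison.

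Lbr and Ebp went the other way. Lbr, which reduces a sterol double bond and is also a protein of the inner nuclear membrane, was higher in IC (0.86), IS (1.36) and IS-HA (0.98), at 10.2 ± 1.09 TPM in Normal and 25.9 ± 4.31 TPM in IS. Ebp, a sterol isomerase, was higher in IS-HA (0.98, adjusted p = 0.0472), with 0.86 in IS (adjusted p = 0.055). Without IS-HA replicate 2 it stood at 0.64 in IS-HA (adjusted p = 0.107). Mvk, Mvd and Pmvk, the kinases and decarboxylase of mevalonate, had log2 fold changes of 0.04, 0.23 and 0.44 in IS and were not called (adjusted p 0.885, 0.626 and 0.274).

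**Figure D3:**
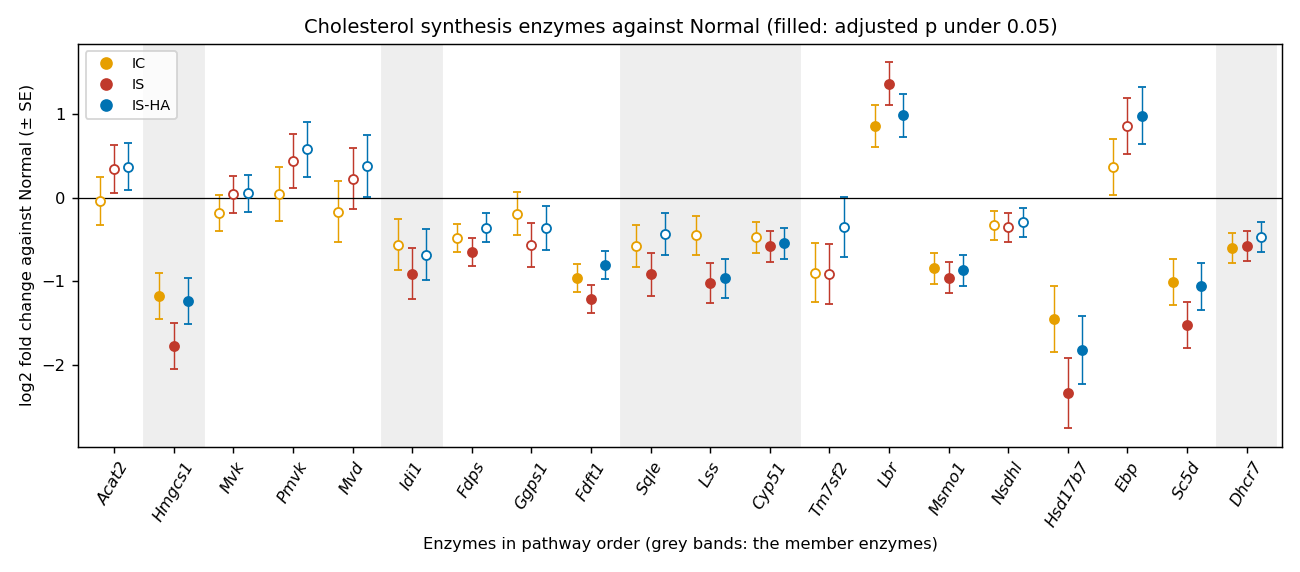
Log2 fold change against Normal of 20 synthesis enzymes in pathway order, with standard errors, for IC, IS and IS-HA; filled points have an adjusted p under 0.05 and grey bands mark the 6 enzymes among the 7 genes. Most filled points lie below 0, and Lbr and Ebp are the filled points above it.

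Of the genes that regulate SREBP or take up cholesterol, 8 were tested. In IC 1 was lower and 1 higher, in IS 4 and 1, and in IS-HA 3 and 1. Of all genes tested 4.64%, 24.2% and 12.1% were lower there, and 13.0%, 24.8% and 19.5% were higher. The 1 higher gene of 8 was below the share of all genes in each group. Srebf2, the transcription factor of this pathway, was lower in all 3 (-0.70, -0.69 and -0.66), at 71.2 ± 7.78 TPM in Normal and 43.6 ± 4.39 TPM in IS. Stard4, a sterol transfer protein, was lower in IS (-1.91) and IS-HA (-1.73), as was Mbtps1, the Golgi protease that first cuts SREBP (-0.49 and -0.48), and Insig2 in IS (-1.12). Mylip, a ubiquitin ligase of lipoprotein uptake, was higher in all 3 (1.47, 2.01 and 1.51).

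Of 10 genes of fatty acid synthesis, 3 were lower in IC, 8 in IS and 7 in IS-HA, with 0, 1 and 1 higher. These stood beside 4.64%, 24.2% and 12.1% of all genes lower, and 13.0%, 24.8% and 19.5% higher. Elovl6, an elongase, had the largest change (-1.58, -2.29 and -1.53), and Fasn, fatty acid synthase (-0.86, -1.31 and -0.94), and Acly, which supplies cytosolic acetyl-CoA (-0.78, -1.24 and -0.88), were lower in all 3. In IS and IS-HA Scd2 (-1.62 and -1.24), Scd (-1.05 and -0.91) and Acss2 (-0.69 and -0.60) were lower, in IS Acaca (-0.58) and Fads2 (-0.92), and in IS-HA Fads1 (-0.55). Me1, malic enzyme, was higher in IS (0.68) and IS-HA (0.76).

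Most called genes of cholesterol turnover and efflux were higher than Normal. Of 12 tested, 5 were higher in IC, 7 in IS and 7 in IS-HA, with 0, 1 and 0 lower. The medians were 1.25, 1.55 and 1.53. Among all genes tested 13.0%, 24.8% and 19.5% were higher, and 4.64%, 24.2% and 12.1% lower. Soat1, which esterifies cholesterol, rose by 2.23, 3.11 and 2.46 on the log2 scale, and Ch25h, which makes 25-hydroxycholesterol, by 2.85, 3.44 and 3.17. The lysosomal Npc2 (2.17, 3.13 and 2.66) and Lipa (1.899, 2.79 and 2.17) and the exporter Abca1 (1.78, 1.59 and 1.56) rose in all 3, and Lcat (1.51 in both) in IS and IS-HA. Apoe, the main apolipoprotein of the brain, was higher in IS (2.54) and IS-HA (1.98, adjusted p = 0.0493). It stood at 5800, 17190 and 6151 TPM in IS-HA, without replicate 2 of that group its log2 fold change was 1.04 (adjusted p = 0.15), and the call was kept in 8 of 20 alternatives. Cyp46a1, the neuronal cholesterol hydroxylase, was lower in IS (-1.11). Over these 4 lists, 46 genes were tested, and 17 were called in IC, 30 in IS and 27 in IS-HA. Without Normal replicate 3 these counts were 5, 17 and 7. Without Normal replicate 1, 8 were called in IC and 16 in IS-HA, and without IS-HA replicate 2, 26 were called in IC.

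Between injured groups 0 genes of these lists were called by edgeR. In IS against IC DESeq2 called 3, and edgeR called 6 without IS-HA replicate 2. The shares of all genes called in these fits were not counted. The largest differences in IS against IC were Apoe (1.11, adjusted p = 0.27), Npc2 (0.96, adjusted p = 0.225) and Lipa (0.89, adjusted p = 0.166). Without IS replicate 4, the highest IS rat for each, they were 0.44, 0.37 and 0.49. In IS-HA against IS they were Elovl6 (0.76, adjusted p = 0.543), Soat1 (-0.66, adjusted p = 0.545) and Lipa (-0.62, adjusted p = 0.563), and without IS replicate 4 Soat1 stood at -0.36 and Lipa at -0.22.

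Markers of the cells that the tissue holds moved in the same comparisons. In bulk tissue, fewer cells of a type and less RNA per cell cannot be told apart. The mean log2 CPM of 8 oligodendrocyte markers, relative to Normal, was -0.57 ± 0.19 in IC, -1.05 ± 0.33 in IS and -0.55 ± 0.20 in IS-HA (SD, n = 3), and that of the 7 genes was -0.70 ± 0.25, -1.0 ± 0.20 and -0.75 ± 0.19. The difference between the 7 genes and the oligodendrocyte list was -0.12 ± 0.09, 0.05 ± 0.25 and -0.20 ± 0.23. It lay between -0.34 and 0.22 in all 9 injured rats, and at -0.136 and 0.136 in the 2 Normal rats. For the astrocyte list the difference was -0.56 ± 0.32, 0.03 ± 0.45 and -0.27 ± 0.35, and ran from -0.79 to 0.55 in injured rats. For the neuron list it was 0.40 ± 0.68, 1.09 ± 0.52 and 0.96 ± 0.43, and ran from -0.05 to 1.64 in injured rats. The fatty acid synthesis genes, which are not cell markers, also stood near the 7 genes, at -0.575, -0.94 and -0.717. Over all genes tested 4.64%, 24.2% and 12.1% were lower in IC, IS and IS-HA. Of the 8 oligodendrocyte markers 0 were called in IC, 7 were lower in IS and 2 in IS-HA. The log2 fold changes of 0 of the 8 lay above 0 in IC and IS, and of 1 in IS-HA (0.42). The summed CPM of these markers ran from 25500 to 27500 in Normal, 14700 to 20000 in IC, 9840 to 15900 in IS and 15100 to 19700 in IS-HA.

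The 8 astrocyte markers stood at -0.14 ± 0.09, -1.03 ± 0.62 and -0.48 ± 0.53. Their summed CPM was 3920 to 4180 in Normal, 4340 to 4650 in IC, 1760 to 3540 in IS and 2670 to 4500 in IS-HA. Of the 8, 1 (Slc1a2) was called lower in each comparison, and 0 were called higher. The log2 fold changes of 4 of the 8 lay above 0 in IC, of 0 in IS and of 3 in IS-HA. The 8 neuron markers stood at -1.10 ± 0.44, -2.09 ± 0.65 and -1.71 ± 0.55, with 2, 8 and 6 lower and summed CPM of 5490 to 5540 in Normal, 1920 to 3730 in IC, 1080 to 2530 in IS and 1620 to 2620 in IS-HA. All 8 microglia and macrophage markers were higher in each comparison (3.47 ± 0.29, 4.11 ± 0.29 and 3.79 ± 0.37), with summed CPM of 206 to 314 in Normal and 1560 to 3780 in injured rats. All 5 neutrophil markers tested were higher too (4.43, 5.84 and 4.91). For all these lists, the shares of all genes were 13.0%, 24.8% and 19.5% higher, and 4.64%, 24.2% and 12.1% lower. Of 6 endothelial markers, whose summed CPM ran from 216 to 314 in Normal and from 283 to 453 in injured rats, 0 were called in IC, 1 was higher and 1 lower in IS, and 1 was lower in IS-HA. Of the 2 erythroid markers found, 0 were called, and their summed CPM ran from 64.5 to 79.9 in Normal, 49.7 to 224 in IC, 34.3 to 55.9 in IS and 18 to 45 in IS-HA. No listed marker found in the table was at 0 in all rats. The part of these markers in the changes of the 7 genes was not tested.

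**Figure D4:**
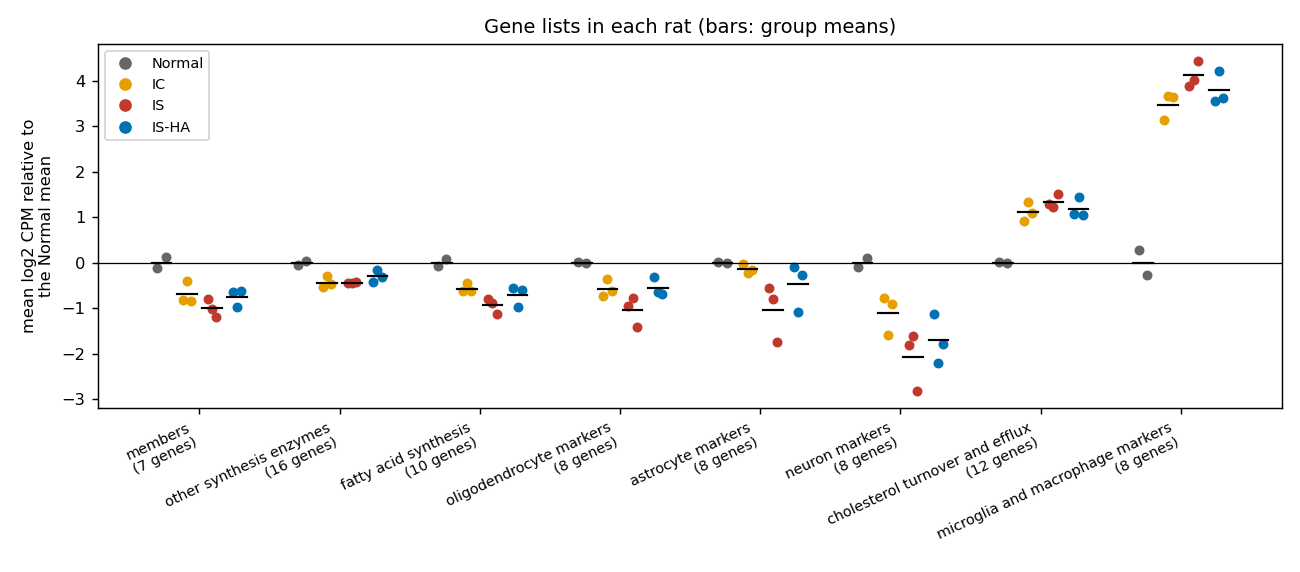
Mean log2 CPM, relative to the Normal mean, of the 7 genes (labelled members) and of 7 other lists; points are rats, colours are groups and bars are group means. In IS the 7 genes lie at a height below 0 (mean -1.0) similar to 3 other lists. These are oligodendrocyte markers (-1.05), astrocyte markers (-1.03) and fatty acid synthesis (-0.94). The IS rats ran from -1.74 to -0.556 for the astrocyte markers. Their median log2 fold change in IS was -0.64, and the lowest was -3.74. Neuron markers lie lower (-2.09 in IS), and microglia and macrophage markers lie above (4.11 in IS).

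The genes whose log2 CPM over the 11 rats was closest to the mean of the 7, each centred on its own mean, were Exoc6b, Acss2, Msmo1, Bcorl1, Rusc2, Dennd5a, Fasn, Sbf1 and Mon2, with root mean square differences from 0.117 (Exoc6b) to 0.132 (Mon2). The median over the other 15735 genes tested was 0.561. Of these, Acss2, Msmo1 and Fasn were on the lists of synthesis, SREBP regulation and fatty acid synthesis, which held 34 genes tested. Of the 7 themselves, Insig1 was the closest to their mean (0.158) and Hmgcs1 the farthest (0.291).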

How the data were processed

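RNA of the striatum of 11 rats was measured by stranded poly(A) sequencing, in paired-end reads of 150 bases. Submitters' processing notes name fastp 0.20.0, HISAT2 2.1.0, SAMtools 1.9, featureCounts, DESeq2 and build mRatBN7.2. The table deposited by the authors holds raw read counts, which are whole numbers, and TPM, in which counts are scaled by gene length and to 1 total per rat. From the counts, genes were filtered with filterByExpr, normalized by TMM and tested in 1 quasi-likelihood fit over the 4 groups with edgeR 4.0.16 in R 4.3.3, with Benjamini-Hochberg adjustment over 15742 genes and an adjusted p under 0.05 as the call. A standard error is the size of the log2 fold change over the root of its F. Values are means with the SD between rats. All methods were tested on simulated data. Depth ran from 6701301 to 18817645 counts, and 0 columns were unmapped.

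The 7 genes and all lists were chosen with earlier results of these data known. Named were the 7 genes, each list gene called against Normal, the 3 list genes with the largest difference in IS against IC and in IS-HA against IS, and the 10 genes nearest to the mean of the 7; Mvk, Mvd, Pmvk, Slc1a2, Ppp1r1b and Drd1 were named after their values were seen. Some genes that this rule would name are not reported here. Alternatives were DESeq2 1.42.0, other size factors, other filters, only the groups compared, a replicate block, limma 3.58.1 on log2(TPM + 1) and log2(TPM + 0.1), and each rat left out. Promoter sequences are from RefSeq (GRCr8). Python 3.11.15 and matplotlib 3.10.9 made the plots.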

Additional observations from a re-analysis of the deposited data

How the results depend on the processing

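Against Normal, the 7 genes gave 21 values under 20 alternatives, and of these 420 results 352 kept direction and side of the threshold, 66 lost their call, 2 gained one and 0 reversed. Only values called in the main fit, 3 in IC, 7 in IS and 4 in IS-HA, could lose a call. The causes of the changes below were not tested. The shares of all genes called in the alternative fits were not counted, so whether these changes are particular to the 7 genes was not tested. In IC, where 3 of the 7 were called, 1 was called with the replicate block, with limma on either TPM scale and at an absolute log2 fold change of at least 1, and leaving out 1 rat gave 0 (without Normal replicate 3) to 3. In IS, where 7 were called, library size alone gave 4, the block 2, limma 4 on both scales and the fold cutoff 3, and leaving out 1 rat gave 2 (without Normal replicate 3) to 7. In IS-HA, where 4 were called, only the groups compared gave 2, limma 2 on both scales and the fold cutoff 1, and leaving out 1 rat gave 0 (without Normal replicate 3) to 4. In IS against IC leaving out 1 rat gave 0 to 1, the 1 being Lss without IS-HA replicate 2, and no alternative called a member in the other comparisons between injured groups.

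For the 46 tested genes of the other lists, IC had 17 calls, 27 with only the groups compared, 2 with the block and 11 with limma on both scales, and 5 to 26 without 1 rat. IS had 30, 14 with the block and 17 to 36 without 1 rat. IS-HA had 27, 14 with only the groups compared, 14 with the block and 7 to 28 without 1 rat. IS against IC had 0, 3 with DESeq2 and 0 to 6 without 1 rat. The shares of all genes called in these alternative fits were not counted either. Of 1477 results of list genes called against Normal, 224 lost their call and 0 reversed.

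Of 420 results of the 7 genes between injured groups, 18 reversed. In IS against IC, Dhcr7 turned to -0.0317 and -0.0325 with limma on log2(TPM + 1) and log2(TPM + 0.1) and ran from -0.0585 to 0.167 without 1 rat, and Cyp51 ran from -0.194 to 0.0261. In IS-HA against IS, the replicate block gave -0.0228 for Idi1, -0.0362 for Lss and -0.0705 for Cyp51, and without 1 rat Lss ran from -0.153 to 0.22 and Cyp51 from -0.0843 to 0.125. In IS-HA against IC, without 1 rat, Hmgcs1 ran from -0.207 to 0.115, Idi1 from -0.265 to 0.147 and Cyp51 from -0.15 to 0.0608. The labels do not say whether the replicate numbers pair the rats. Deviations from group means had a median correlation across genes of -0.05 over 11 same-numbered pairs and 0.04 over the others. The same-numbered pairs ran from -0.475 to 0.356, and 2 of the 11 were over 0.1. These correlations cannot settle pairing, since centring ties the rats of a group and makes the 2 Normal rats mirror each other. With 2 Normal rats, a fold change against Normal is limited by the spread between them, and the 7 genes had 84 counts or more in every rat.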
